A study of Homo sapiens with 16 samples.

Results

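The genes described here encode subunits of the mitochondrial respiratory chain, complexes I to IV, measured in 3 human cancer cell lines that differ in STAG2, a subunit of the cohesin ring. Members were taken by gene symbol: names that begin with NDUFA, NDUFB, NDUFC, NDUFS or NDUFV without the NDUFAF assembly factors, names that begin with UQCR, the genes CYC1, SDHA, SDHB, SDHC and SDHD, and names that begin with COX4, COX5, COX6, COX7 or COX8. This rule found 64 of the 18417 genes that had an array row of their own. Of these 64, the long non-coding RNA NDUFV1-DT and the pseudogene UQCRBP1 encode no protein, which left 62 subunit genes: 34 of complex I, 3 of complex II, 8 of complex III and 17 of complex IV. A gene was tested if it exceeded an array's median value on 2 or more of the 16 arrays, which 58 of the 62 did, among 12978 genes tested in all. Of these 58, 53 exceeded it on all 16. The other 4 subunit genes, COX4I2, COX6B2, COX7B2 and COX8C, are forms of complex IV subunits with restricted tissue distribution, and lay above the median on 0 arrays.

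The respiratory chain sits in the inner mitochondrial membrane and passes electrons to oxygen while pumping protons. Complex I takes electrons from NADH through an arm in the matrix and pumps protons through an arm in the membrane, and complex II takes electrons from succinate. Complex III hands electrons on to cytochrome c, and complex IV passes them to oxygen. Most subunits are encoded in the nucleus, and the remainder in mitochondrial DNA. The members described here are all nuclear genes.

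Affymetrix Human Gene 1.0 ST arrays, with 1 array per culture, measured total RNA of untreated, cycling cells grown in DMEM with serum. STAG2-deficient H4 cells (labelled glioblastoma) were the parental STAG2 mutant line and the non-recombinant clones 10 and 12, and STAG2-corrected H4 cells were the knock-in post-Cre clones 8-1, 8-3 and 88-1. STAG2-deficient 42MGBA cells (labelled glioblastoma) were the parental mutant line and the knock-in pre-Cre clones 53 and 92, and STAG2-corrected 42MGBA cells were the post-Cre clones 53-1, 53-7 and 92-6. HCT116 cells (labelled colorectal cancer) were the STAG2 knockout clones 7 and 21 and the wild-type non-recombinant clones 24 and 27. By their numbers, H4 clones 8-1 and 8-3 share a parent clone, as do 42MGBA clones 53-1 and 53-7. The numbers also tie corrected 42MGBA clones 53-1 and 53-7 to deficient clone 53, and 92-6 to deficient clone 92. The main fit did not use this pairing. Each group is therefore a parental line or a few clones of 1 cell line, and the p-values reflect the spread among these cultures alone, which may be technical in part. All values are the authors' log2 expression values, and differences are on the log2 scale.

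STAG2 stood at 6.57, 6.96 and 6.62 in deficient H4 cells, against 8.95, 8.91 and 8.87 in corrected H4 cells. It stood at 6.57 and 7.14 in HCT116 knockout clones 7 and 21, against 9.28 and 9.30 in wild-type clones 24 and 27. In 42MGBA it stood at 4.75, 5.34 and 5.60 in deficient cells, against 5.65, 5.41 and 5.53 in corrected cells, so these groups overlapped (difference -0.30, adjusted p = 1.00). The 9 tested epithelial and colorectal markers had a median percentile of 26.0 in 42MGBA and 20.1 in H4, against 90.3 in HCT116. However, CDX1, CDX2 and LGALS4 did not set HCT116 apart. KRT20 and VIL1 were not tested and were low in HCT116 too, at percentiles 18.0 and 22.2 of all genes. The 8 tested neural, glial and mesenchymal markers had a median percentile of 88.7 in 42MGBA and 53.2 in H4, against 8.30 in HCT116. Those high in both brain tumour lines were VIM, CDH2, FN1 and SPARC. COL1A2 was high in 42MGBA only, and NES was no higher in H4 than in HCT116. SOX2 was lowest in 42MGBA, at percentile 17.1 of all genes, against 34.5 in H4 and 28.8 in HCT116. S100B, OLIG2 and FABP7 were not tested and did not set the brain tumour lines apart. The glial marker GFAP was low in both brain tumour lines, at percentile 35.3 of all genes in 42MGBA and 40.0 in H4, against 39.8 in HCT116. Array medians were 5.0 to 5.05 in 42MGBA and 6.23 to 6.30 in H4 and HCT116, so 42MGBA lay on another scale and its levels were compared with the other lines only as percentiles within an array.

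In H4, 5 subunit genes were higher in STAG2-deficient than in STAG2-corrected cells, and none passed the test in the other direction. They were NDUFB2, NDUFC1 and NDUFB5, accessory subunits of the membrane arm of complex I, UQCRQ, a small subunit of complex III, and COX8A, the widely expressed form of subunit VIII of complex IV. The differences were 0.38 to 0.53, or 1.30- to 1.45-fold. These 5 of 58 members, or 8.62%, compare with 1.3% of all tested genes called higher in this contrast, and the 0 called lower with 2.0%. The test was limma's moderated test over all 12978 genes with Benjamini-Hochberg adjustment and a threshold of 0.05. At an unadjusted p under 0.05, 20 members were higher and 2 lower, together 37.9% of the members, where 16.4% of all genes reached it.

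NDUFB2 stood at 9.02, 9.24 and 9.04 in parental cells and clones 10 and 12, against 8.59, 8.51 and 8.60 in corrected clones 8-1, 8-3 and 88-1. All 3 deficient cultures lay above all 3 corrected clones, and the difference was 0.53 (SE 0.12, adjusted p = 0.0234). NDUFC1 stood at 9.28, 9.34 and 9.52 in the deficient cultures, against 8.88, 8.85 and 9.0 in the corrected clones. These groups did not overlap either, with a difference of 0.47 (95% interval 0.24 to 0.70, adjusted p = 0.0279). NDUFB5 stood at 9.93, 10.10 and 10.19 in the deficient cultures, against 9.44, 9.59 and 9.87 in the corrected clones. Its groups were separated only narrowly, since clone 88-1 lay close to the parental culture, and the difference was 0.44 (95% interval 0.21 to 0.68, adjusted p = 0.0426).

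UQCRQ stood at 9.87, 10.24 and 9.93 in the deficient cultures, against 9.58, 9.49 and 9.61 in the corrected clones. Its groups did not overlap, clone 10 was the highest of the 6 arrays, and the difference was 0.45 (95% interval 0.23 to 0.67, adjusted p = 0.0290). COX8A stood at 9.83, 9.89 and 9.78 in the deficient cultures, against 9.46, 9.39 and 9.50 in the corrected clones. The spread of COX8A within each group (SD 0.05 in both) was small beside its difference of 0.38 (95% interval 0.17 to 0.59, adjusted p = 0.0469).

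**Figure D1:**
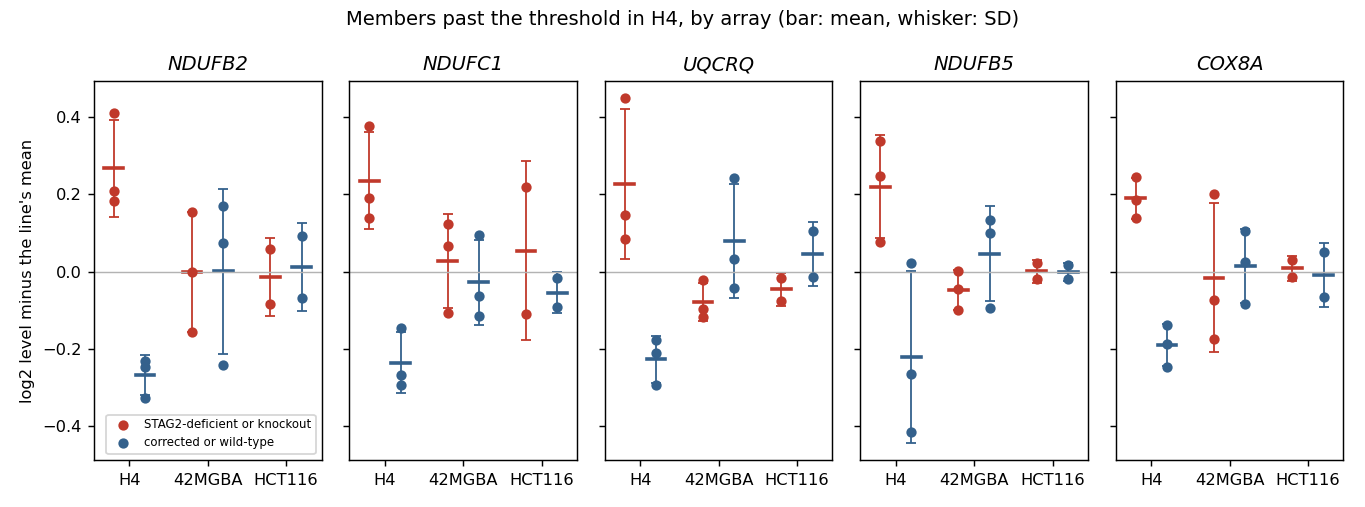
Log2 level minus the mean of the cell line for the 5 members past the threshold in H4, with 1 point per array, a bar at the group mean and a whisker of 1 SD (n = 3 per group in H4 and 42MGBA, n = 2 in HCT116). In H4 every deficient culture (red) lies above every corrected clone (blue), while in 42MGBA and HCT116 the differences of these genes lie between -0.16 and 0.11.

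These calls depended on single arrays. Without parental cells 5 members passed (NDUFB2, NDUFC1, NDUFB5, UQCRQ and, in place of COX8A, NDUFA2), and without corrected clone 88-1 3 passed (NDUFB5, NDUFC1 and SDHC), but without clone 10, clone 12, clone 8-1 or clone 8-3 the number was 0. With clones 8-1 and 8-3 averaged as 1 sample, or with H4 fitted alone, it was also 0. In the 6 leave-one-out fits the differences were 0.46 to 0.58 for NDUFB2, 0.40 to 0.52 for NDUFC1, 0.34 to 0.56 for NDUFB5, 0.34 to 0.52 for UQCRQ and 0.35 to 0.41 for COX8A. Their sign could not turn in these fits, because the groups did not overlap. COX8A lost its call in all 6 (adjusted p 0.0696 to 0.162).

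Other genes came close to the threshold in H4 or had the next smallest p in their complex. NDUFB9, another membrane arm subunit, stood at 10.19, 10.16 and 10.35 in deficient cultures, against 9.98, 9.85 and 9.85 in corrected clones, a difference of 0.34 (adjusted p = 0.0551). NDUFA5 and NDUFA2, accessory subunits of the matrix arm, came next: NDUFA5 stood at 9.24, 9.18 and 9.26 in deficient cultures, against 8.91, 8.75 and 8.84 in corrected clones (difference 0.39, adjusted p = 0.0638), and NDUFA2 at 8.22, 8.37 and 8.59, against 7.98, 8.08 and 8.0 (difference 0.37, adjusted p = 0.0764). COX5B, the subunit Vb of complex IV, stood at 8.41, 8.67 and 8.47 in deficient cultures, against 8.15, 8.16 and 8.29 in corrected clones, a difference of 0.32 (adjusted p = 0.0908). None of these 4 genes overlapped between the groups, and none passed the test. COX7A2, the widely expressed form of subunit VIIa, stood at 10.22, 10.42 and 10.24 in deficient cultures, against 9.95, 10.12 and 9.97 in corrected clones (difference 0.28, adjusted p = 0.159). UQCR11, a small complex III subunit, stood at 7.38, 7.54 and 7.20 in deficient cultures, against 7.15, 7.14 and 7.01 in corrected clones (difference 0.27, adjusted p = 0.144). CYC1, the haem protein cytochrome c1 of complex III, stood at 10.28, 10.14 and 10.21 in deficient cultures, against 10.09, 9.97 and 9.99 in corrected clones (difference 0.19, adjusted p = 0.346). For all 3 the gap between the groups was narrower than the range within the deficient cultures.

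Complex II was represented by SDHA, the flavoprotein that oxidises succinate, and by the membrane anchors SDHC and SDHD. SDHD stood at 9.99, 9.82 and 10.09 in deficient H4 cultures, against 9.72, 9.79 and 9.68 in corrected clones, a difference of 0.24 without overlap (adjusted p = 0.232). SDHC stood at 9.55, 9.24 and 9.60 in deficient cultures, against 9.0, 9.04 and 9.58 in corrected clones, a difference of 0.26 (adjusted p = 0.354). Clone 88-1 lay with the deficient cultures for SDHC, so these groups overlapped. SDHA stood at 10.77, 11.03 and 10.55 in deficient cultures, against 10.70, 10.74 and 10.82 in corrected clones, and its difference of 0.03 had an interval of -0.20 to 0.26. Within complex I the largest difference in the other direction was that of NDUFA10, an accessory subunit, at -0.30 (adjusted p = 0.0787).

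Beyond single genes, 42 of the 58 members had a positive difference in H4, against 54.4% of all tested genes, and the median difference was 0.13, against 0.02 over all genes. By complex, 25 of 34 complex I genes were positive (median 0.12), 3 of 3 of complex II (median 0.24), 4 of 8 of complex III (median 0.07) and 10 of 13 of complex IV (median 0.13). Inside complex I, the membrane arm had 14 of 18 positive (median 0.18) and 3 called, the accessory genes of the matrix arm 7 of 10 (median 0.08) and 0 called, and the core genes 4 of 6 (median 0.08) and 0 called. For 23 members every deficient culture lay above every corrected clone, a separation that 12.1% of all genes showed. For 5 (COX7A1, NDUFA10, NDUFS1, NDUFS4 and UQCRC2) every deficient culture lay below, as for 8.68% of all genes. Of these, COX7A1 lay above the array median on 0 H4 and 0 HCT116 arrays, and it is still counted in both lines.

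**Figure D2:**
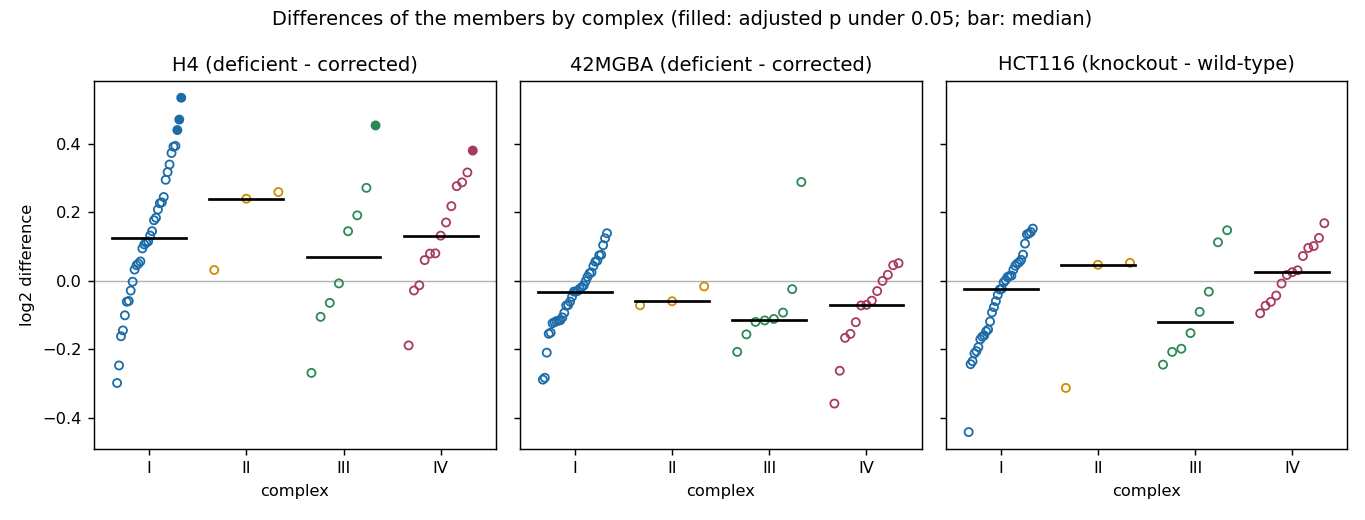
Log2 differences of the 58 tested members by complex, with deficient minus corrected in H4 and 42MGBA and knockout minus wild-type in HCT116, 1 point per gene, a bar at the median of the complex, and filled points for an adjusted p under 0.05. The 5 filled points are all in H4, where the medians of complexes I to IV are 0.12, 0.24, 0.07 and 0.13.

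Each array carried part of this shift. Relative to the mean of the line, the median member lay at 0.06, 0.09 and 0.08 in parental cells and clones 10 and 12, against -0.07, -0.06 and -0.05 in clones 8-1, 8-3 and 88-1. The median of all genes lay within 0.02 of the line's mean on every one of these arrays. By complex, not every array took part. Complex II lay at -0.03 in deficient clone 10 and at 0.05 in corrected clone 88-1, and complex IV at 0.01 in clone 88-1. The members' median in a line did not separate the groups in the other lines: it was -0.00, -0.09 and -0.06 in deficient 42MGBA cells, against -0.02, 0.08 and 0.07 in corrected ones, and -0.02 and -0.03 in HCT116 knockout clones, against 0.05 and -0.02 in wild-type clones.

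**Figure D3:**
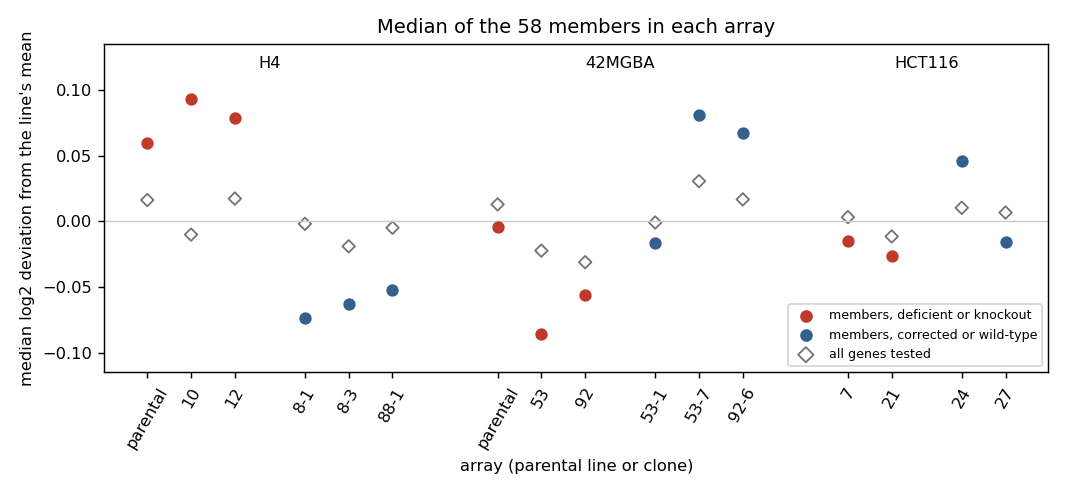
Median deviation of the 58 members (filled circles) and of all tested genes (open diamonds) from the mean of the cell line, in log2 units, for each array. The deficient H4 cultures (red) lie at 0.06 to 0.09 and the corrected H4 clones (blue) at -0.07 to -0.05, while the groups overlap in 42MGBA and HCT116.

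Gene length moved with the H4 contrast over all genes. With all genes put into 5 bins of equal size by genomic span, the median difference was, shortest bin first, 0.07, 0.05, 0.02, -0.01 and -0.07. The members are short genes, with a median span of 10.8 kb, against 26.6 kb for all tested genes, and 43 of 58 lie in the 2 shortest bins. In the shortest bin 20 of 23 members were positive (median 0.14), in the next 16 of 20 (median 0.23), and in the 3 longer bins 3 of 8, 3 of 5 and 0 of 2 (medians -0.01, 0.03 and -0.27). Level moved with this contrast too: in the highest of 5 bins of mean level 60.8% of all genes were positive, as were 24 of 34 members. The part of gene length and of level in the result was not tested. Chromosome 7 also stood higher in deficient H4 cells, with a median difference of 0.14 over 596 genes, and it carries NDUFB2 and NDUFA5. Without these 2 genes, 40 of 56 members were positive with a median of 0.12 and 4 were called.

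Promoter letters of the members that passed in H4 are shown for the 3 that had a single entry in the RefSeq promoter table of GRCh38.p14, as the 250 bases before the annotated start on the gene's own strand, which is the plus strand for all 3. NDUFB2 lies at chr7:140696458-140696707, UQCRQ at chr5:132866392-132866641 and COX8A at chr11:63974370-63974619. Capitals mark matches to the 6 motifs searched on both strands: GCGCA, any base, GCGC (NRF1), CCGGAAG (ETS family), AAGATGGCG (YY1), AAGGTCA (ESRRA), CCAAT (NF-Y) and GGGCGG (SP1), named for factors known to act at promoters of nuclear genes for mitochondrial proteins.
NDUFB2: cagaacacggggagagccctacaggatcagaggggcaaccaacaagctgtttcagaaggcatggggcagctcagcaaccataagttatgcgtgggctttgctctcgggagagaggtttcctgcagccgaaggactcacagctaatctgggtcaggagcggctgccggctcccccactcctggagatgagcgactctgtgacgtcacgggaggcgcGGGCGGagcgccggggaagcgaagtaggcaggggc
UQCRQ: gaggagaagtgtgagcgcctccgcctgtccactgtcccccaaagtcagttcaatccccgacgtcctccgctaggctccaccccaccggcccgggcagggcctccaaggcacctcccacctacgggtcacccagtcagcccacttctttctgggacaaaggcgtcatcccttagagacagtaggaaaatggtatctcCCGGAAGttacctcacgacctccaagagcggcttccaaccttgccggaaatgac
COX8A: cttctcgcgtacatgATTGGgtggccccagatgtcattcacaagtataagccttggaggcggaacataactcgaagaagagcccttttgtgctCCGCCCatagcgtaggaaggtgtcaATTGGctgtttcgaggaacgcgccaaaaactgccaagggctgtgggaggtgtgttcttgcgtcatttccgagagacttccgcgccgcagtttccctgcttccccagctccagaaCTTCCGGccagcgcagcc
NDUFB2 shows 1 match, GGGCGG, that begins 35 bases before the start. UQCRQ shows 1 match, CCGGAAG, 54 bases before the start. COX8A shows CTTCCGG, the ETS motif on the other strand, 18 bases before the start, the SP1 motif on the other strand (CCGCCC) at 157 bases and the NF-Y motif on the other strand (ATTGG) at 132 and 235 bases. No motif is thus common to the 3 windows.

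The same 6 motifs were counted in the 300 bases around the start (250 before, 50 after) of the 54 members with an entry. The other 8 were COX4I2, COX6C, COX7A1, CYC1, NDUFB5, NDUFB9, SDHC and UQCRB. The NRF1 motif was in 12 of 54 members (22.2%), against 12.5% of 10310 tested genes with an entry and 5.78% of all 35116 promoters. The YY1 motif was in 7 (13.0%, against 4.42% and 1.75%), the ESRRA motif in 7 (13.0%, against 3.49% and 3.92%) and the ETS motif in 14 (25.9%, against 20.9% and 10.3%). The SP1 motif was in 31 (57.4%, against 75.9% and 44.95%) and the NF-Y motif in 19 (35.2%, against 42.3% and 34.6%). By complex, the NRF1 motif was in 6 of 32 complex I genes, 2 of 2 of complex II, 3 of 6 of complex III and 1 of 14 of complex IV, and the YY1 motif in 6 complex I genes and UQCRC1. These are counts of letters and say nothing about binding in these cells.

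The partners of the respiratory chain, taken from textbook lists, were measured in the same H4 contrast. There 54.4% of all tested genes were positive, 1.3% were called higher and 2.0% lower. Of 17 tested ATP synthase subunits 12 were positive (median 0.07) and 1 passed: ATP5MF, a small subunit of the membrane part, at 0.59 (SE 0.12, adjusted p = 0.0166). Of 17 tested complex I assembly factors 10 were positive (median 0.02) and 1 passed: NDUFAF3, at 0.39 (SE 0.10, adjusted p = 0.0450). Of 27 tested assembly factors of complexes II, III and IV 23 were positive (median 0.12) and 0 passed. Cytochrome c and ubiquinone synthesis (7 of 13 positive), regulators of mitochondrial genes (9 of 15) and citric acid cycle enzymes (9 of 12) also had 0 calls. The 11 listed subunits encoded in mitochondrial DNA were not analysed here.

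In 42MGBA no member passed, as no gene of the whole table did (0.0% called in either direction by limma). Of the 58 members 15 were positive, against 39.7% of all genes, and the median difference was -0.06, against -0.03. In the highest of 5 bins of mean level 32.5% of all genes and 7 of 34 members were positive. After quantile normalization within each line 50.6% of all genes were positive. At an unadjusted p under 0.05, 0 members were higher and 3 lower, where 512 genes in all (3.95%) reached it. For 8 members every deficient culture lay below every corrected clone, against 6.33% of all genes, and for 0 above, against 2.57%.

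The 3 were NDUFB4, COX6C and COX7A1. NDUFB4, a membrane arm subunit of complex I, stood at 8.85, 8.75 and 8.79 in deficient parental cells and clones 53 and 92, against 8.99, 9.15 and 9.12 in corrected clones 53-1, 53-7 and 92-6 (difference -0.29, adjusted p = 1.00). COX6C stood at 8.03, 8.00 and 8.26 in deficient cultures, against 8.40, 8.60 and 8.37 in corrected clones (difference -0.36). COX7A1, the form of subunit VIIa typical of heart and skeletal muscle, stood at 6.93, 6.90 and 6.76 in deficient cultures, against 7.04, 7.27 and 7.07 in corrected clones (difference -0.26). All 3 were separated between the groups, by differences that did not survive adjustment over all genes.

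The other genes with the smallest p of their complex mostly overlapped. NDUFA6, an accessory subunit of complex I, stood at 8.47, 8.30 and 8.39 in deficient 42MGBA cultures, against 8.45, 8.71 and 8.64 in corrected clones (difference -0.21). NDUFB3, of the membrane arm, stood at 5.02, 4.55 and 5.25 in deficient cultures, against 5.07, 5.28 and 5.31 in corrected clones (difference -0.28), with clone 53 far below the others. COX5A, the subunit Va of complex IV, stood at 8.93, 9.07 and 8.86 in deficient cultures, against 8.96, 9.14 and 9.27 in corrected clones (difference -0.17).

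In complex III, UQCRB takes part in ubiquinone binding. It stood at 4.05, 4.59 and 4.60 in deficient 42MGBA cultures, against 4.21, 4.15 and 4.01 in corrected clones. The difference of 0.29 was set by clones 53 and 92, and UQCRB lay above the array median on 0 of the 42MGBA arrays. UQCR10, a small subunit, stood at 8.38, 8.35 and 8.07 in deficient cultures, against 8.19, 8.69 and 8.55 in corrected clones (difference -0.21). UQCRC2, a core protein on the matrix side, stood at 9.06, 8.92 and 9.01 in deficient cultures, against 9.08, 9.17 and 9.09 in corrected clones (difference -0.12), and of the 3 it alone did not overlap. In complex II, SDHA stood at 9.35, 9.43 and 9.32 in deficient cultures, against 9.49, 9.37 and 9.29 in corrected clones. SDHC stood at 9.03, 8.99 and 9.07, against 9.07, 9.14 and 9.06, and SDHD at 7.67, 7.33 and 7.47, against 7.61, 7.48 and 7.59. The complex II groups all overlapped, with differences of -0.02 to -0.07.

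Of the genes called in H4, UQCRQ stood at 8.65, 8.58 and 8.56 in deficient 42MGBA cultures, against 8.71, 8.63 and 8.92 in corrected clones (difference -0.16, interval -0.38 to 0.06). NDUFB5 stood at 7.51, 7.46 and 7.56 in deficient cultures, against 7.69, 7.66 and 7.46 in corrected clones (difference -0.09, interval -0.33 to 0.14). COX8A stood at 9.38, 9.01 and 9.11 in deficient cultures, against 9.10, 9.21 and 9.29 in corrected clones (difference -0.03, interval -0.24 to 0.18). The groups overlapped for all 3, and the differences of NDUFB2 (-0.00, interval -0.25 to 0.25) and NDUFC1 (0.06, interval -0.17 to 0.28) were near 0 as well.

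In HCT116 no member passed either, where 0.0771% of all genes were called higher and 0.0539% lower. Of the 58 members 27 were positive, against 46.6% of all genes, with a median of -0.02, against -0.01. With single arrays left out this median ranged between -0.05 and 0.01, so its sign was not settled. At an unadjusted p under 0.05, 0 members were higher and 2 lower, where 7.83% of all genes reached it. Both knockout clones lay above both wild-type clones for 9 members and below them for 18, shares of 15.5% and 31.0%, against 18.5% and 22.1% of all genes.

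NDUFS1, the large iron-sulphur protein of complex I, stood at 10.08 and 9.41 in knockout clones 7 and 21, against 10.24 and 10.15 in wild-type clones 24 and 27 (difference -0.44, adjusted p = 0.506). Its low mean came from clone 21, and without clone 7 it was the single member called, at -0.78 (adjusted p = 0.0137), in a fit that lends the lone clone 21 the spread of the other groups. SDHD stood at 10.15 and 10.11 in knockout clones, against 10.499 and 10.39 in wild-type clones (difference -0.31, adjusted p = 0.554). NDUFB7, of the membrane arm, stood at 8.48 and 8.61 in knockout clones, against 8.82 and 8.74 in wild-type clones (difference -0.24, adjusted p = 0.701), and NDUFS7, an iron-sulphur subunit near the ubiquinone site, stood at 7.64 and 7.55, against 7.92 and 7.69 (difference -0.21, adjusted p = 0.723). For these 4 genes both knockout clones lay below both wild-type clones. All 6 core genes of complex I had a negative difference, from -0.44 for NDUFS1 to -0.02, with a median of -0.17, and 1 of them had an unadjusted p under 0.05.

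In complex III, UQCRC2 stood at 11.26 and 11.18 in knockout clones, against 11.09 and 11.05 in wild-type clones (difference 0.15, adjusted p = 0.740). UQCRH, the hinge protein, stood at 7.66 and 7.61 in knockout clones, against 8.03 and 7.64 in wild-type clones (difference -0.20). UQCR10 stood at 9.83 and 9.65 in knockout clones, against 10.00 and 9.89 in wild-type clones (difference -0.21). UQCRH overlapped between the groups, and the other 2 did not. In complex IV, COX7C stood at 9.74 and 9.62 in knockout clones, against 9.59 and 9.43 in wild-type clones (difference 0.17, adjusted p = 0.788). COX6C stood at 10.75 and 10.81 in knockout clones, against 10.60 and 10.71 in wild-type clones (difference 0.12), and COX6A1 at 10.73 and 10.78, against 10.70 and 10.62 (difference 0.10). These 3 were higher in both knockout clones, by gaps of at most a few hundredths. In complex II, SDHA stood at 10.82 and 11.004 in knockout clones, against 10.90 and 10.84 in wild-type clones, and SDHC at 9.65 and 9.69, against 9.61 and 9.62.

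Of the genes called in H4, UQCRQ stood at 9.42 and 9.36 in knockout clones, against 9.54 and 9.42 in wild-type clones (difference -0.09, interval -0.36 to 0.18). NDUFB5 stood at 9.85 and 9.89 in knockout clones, against 9.88 and 9.85 in wild-type clones (difference 0.00, interval -0.29 to 0.29). COX8A stood at 9.95 and 9.90 in knockout clones, against 9.97 and 9.85 in wild-type clones (difference 0.02, interval -0.24 to 0.27). NDUFB5 and COX8A overlapped between the groups, UQCRQ was separated by a gap too small to show at this rounding, and NDUFB2 (-0.03) and NDUFC1 (0.11) differed little too.

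Averaged over the 3 lines, 33 of 58 members were positive, against 45.9% of all genes, with a median of 0.02, and 0 passed, against 0.0462% of all genes called higher and 0.0925% lower. At an unadjusted p under 0.05, 3 members were higher and 4 lower, where 9.86% of all genes reached it. The smallest p belonged to NDUFA10, at -0.19 (adjusted p = 0.240). Without HCT116 clone 7, NDUFS1 passed at -0.32 (adjusted p = 0.0417).

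Whether the contrast differed between lines was tested by interaction terms, and 0 members passed in any of the 3 tests. H4 and 42MGBA differed most: the H4 difference minus the 42MGBA difference was positive for 51 of 58 members, against 58.9% of all genes, with a median of 0.22, against 0.04. Over all genes this share was larger for high and for short genes. It was 68.5% in the highest of 5 bins of mean level, where 32 of 34 members were positive. In the shortest bin of span it was 72.3%, where 23 of 23 members were positive. The part of level and span was not tested, and 42MGBA enters on its own scale. At an unadjusted p under 0.05 the H4 minus 42MGBA value was positive for 13 and negative for 2 members, where 11.3% of all genes reached that p, with UQCRQ having the smallest p (0.61, SE 0.15, adjusted p = 0.123). Of all genes 0.1% passed higher and 0.154% lower. For H4 minus HCT116, 42 of 58 were positive, against 55.6% of all genes, with a median of 0.18, against 0.04. The share of all genes was 62.8% in the highest bin of level (25 of 34 members) and 69.3% in the shortest bin of span (18 of 23 members). The H4 minus HCT116 value was positive for 13 and negative for 1 at an unadjusted p under 0.05, which 13.5% of all genes reached, and the smallest p belonged to SDHD (0.55, SE 0.16, adjusted p = 0.141), where 0.116% of all genes passed higher and 0.177% lower. For 42MGBA minus HCT116, 23 of 58 were positive, against 47.7% of all genes, with a median of -0.03, and 5 had an unadjusted p under 0.05, against 4.85%. Here the smallest p belonged to NDUFB4 (-0.37, adjusted p = 0.911), where 0.00771% passed higher and 0.0154% lower. Any 2 of these tests share the arrays of a line. The 5 calls in H4 are therefore not shown to be particular to that line.

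Between lines most tested genes passed, members and others alike. In H4 against HCT116, with both STAG2 states averaged, 38 of 58 members passed, where 8024 of all 12978 tested genes did. The members' total was thus close to that of all genes. Of the members 10 were higher and 28 lower in H4, shares of 17.2% and 48.3%, where 28.2% of all genes were called higher and 33.6% lower. The difference was positive for 16 of the 58 and for 44.4% of all genes, and the median difference was -0.18, against -0.05. Complex III stood lowest, with 6 of 8 genes lower, 1 higher and a median of -0.42. In complex I 7 of 34 were higher and 16 lower (median -0.17), in complex II 0 of 3 higher and 2 lower (median -0.31), and in complex IV 2 of 13 higher and 4 lower (median -0.15). The 2 lines differ in tissue of origin, and their other differences were not separated from it.

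NDUFB9 ranged from 9.85 to 10.35 over the 6 H4 arrays, against 10.94 to 11.08 over the 4 HCT116 arrays, a difference of -0.95 (SE 0.07, adjusted p = 1.94e-08). NDUFB6, also of the membrane arm, ranged from 6.02 to 6.31 in H4, against 6.96 to 7.21 in HCT116 (difference -0.90, SE 0.09). The 2 lines were far apart for both genes. In complex III, CYC1 ranged from 9.97 to 10.28 in H4, against 10.78 to 11.03 in HCT116 (difference -0.78, SE 0.08). UQCR11 ranged from 7.01 to 7.54 in H4, against 7.89 to 8.08 in HCT116 (difference -0.78, SE 0.07), and UQCRB ranged from 5.99 to 6.61, against 6.94 to 7.27 (difference -0.75, SE 0.12). Other genes without overlap and lower in H4 included UQCR10 (-0.52), NDUFB10 (-0.54), NDUFB8 (-0.52), NDUFV1, which binds NADH (-0.48), NDUFS7 (-0.48), and SDHD (-0.44).

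The other direction was led by COX6B1, a complex IV subunit on the intermembrane side, which ranged from 10.94 to 11.22 in H4, against 10.13 to 10.24 in HCT116 (difference 0.91, SE 0.07, adjusted p = 2.19e-08). NDUFA12, an accessory subunit of the matrix arm, ranged from 9.46 to 9.88 in H4, against 9.10 to 9.32 in HCT116 (difference 0.57, SE 0.09). NDUFB4 ranged from 10.504 to 10.77 in H4, against 10.06 to 10.18 in HCT116 (difference 0.51, SE 0.07). UQCRQ was the single complex III gene that was higher, at 0.35 (SE 0.08, adjusted p = 0.00161), but its lowest H4 array, clone 8-3, lay below the highest HCT116 array. COX8A was lower in H4 (-0.27, adjusted p = 0.00581) and NDUFB5 did not pass (-0.02, interval -0.20 to 0.17). COXFA4, listed until recently as NDUFA4 and outside the name rule, was higher by 1.00 (SE 0.06).

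Over all members, 5 were higher and 22 lower without overlap between the lines, where 21.9% and 25.2% of all genes were. The 4 members on chromosome 8, all called lower (COX6C, CYC1, NDUFB9 and UQCRB), had a median of -0.76, where all 450 tested genes of that chromosome had a median of -0.21. Without them the members' median was -0.15. Among deficient and knockout cultures alone 23 members passed, with a median of -0.13, and among corrected and wild-type clones alone the median was -0.27.

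**Figure D4:**
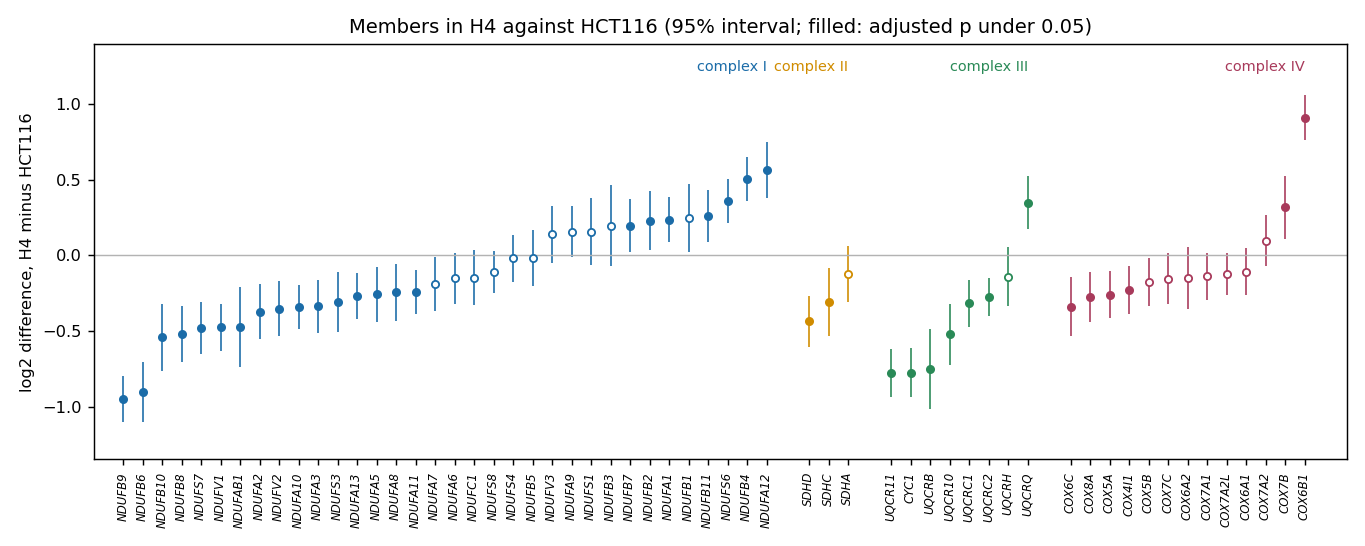
Log2 difference of each tested member, H4 minus HCT116 with both STAG2 states averaged, ordered within its complex, with 95% intervals and filled points for an adjusted p under 0.05. Complex III lies mostly below 0 (6 of 8 lower), and COX6B1 stands highest, at 0.91.

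The partner lists were measured in H4 against HCT116 too, where 28.2% of all genes were called higher and 33.6% lower. ATP synthase subunits had 1 higher and 9 lower of 17 (median -0.27), complex I assembly factors 2 and 8 of 17 (median -0.25), assembly factors of complexes II to IV 4 and 13 of 27 (median -0.23), cytochrome c and ubiquinone synthesis 0 and 7 of 13 (median -0.25), and citric acid cycle enzymes 1 and 6 of 12 (median -0.19). Regulators of mitochondrial genes had 1 higher and 13 lower of 15 (median -0.46), with the smallest p for the transcription factor MYC at -3.15 (SE 0.18), the mitochondrial rRNA methyltransferase TFB1M at -0.999 (SE 0.0955) and the mitochondrial helicase TWNK at -1.16 (SE 0.12).

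For 42MGBA, each gene's percentile among the tested genes of its array was compared with the mean of H4 and HCT116. Of 58 members 45 passed, where 10810 of all 12978 tested genes did, a larger share. Of the members 31 were higher and 14 lower in 42MGBA, where 42.1% of all genes were called higher and 41.2% lower. The median difference was 2.08 percentile points, against 0.15 over all genes, with 39 of 58 positive, against 50.5% of all genes. For 19 members all 42MGBA arrays lay above all others and for 9 below, where 26.5% and 23.5% of all genes did. The 42MGBA arrays form a set of their own scale, so that line and array set cannot be told apart.

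NDUFA5 stood out in the lower direction. Its mean percentile was 12.9 in 42MGBA (8.83 to 15.6 over 6 arrays), against 77.7 in H4 (73.2 to 81.6) and 82.4 in HCT116 (80.9 to 83.2), a difference of -67.1 points (SE 1.12, adjusted p = 6.36e-14). COX7A1 showed the opposite, at 71.2 in 42MGBA (66.3 to 76.3), against 2.51 in H4 and 4.89 in HCT116. COX7A1 entered the table only through its 42MGBA arrays, so its values are given as a description, and UQCRB entered only through the other lines. Without COX7A1 and UQCRB, 30 of 56 members were called higher and 13 lower. NDUFB6 is still among the 13 called lower. It exceeded the array median on only 1 of the 42MGBA arrays, so it too entered through the other lines. The counts and the median over 58 members include all of these genes.

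Other members higher in 42MGBA were NDUFB1 of the membrane arm, at 80.8, against 49.7 in H4 and 44.6 in HCT116 (difference 33.7, SE 1.68), and the iron-sulphur subunit NDUFS8, at 85.8, against 60.6 in H4 and 63.7 in HCT116 (difference 23.6, SE 0.95). NDUFV3 (22.7), NDUFS7 (20.2), NDUFA2 (14.7) and NDUFA7 (9.53) of the matrix arm were higher as well, as were COX7B (14.1) and COX5A (12.7). Members lower in 42MGBA included NDUFAB1, the mitochondrial acyl carrier protein, at 63.1, against 85.7 in H4 and 91.2 in HCT116 (difference -25.3, SE 2.09). UQCRB, above the array median on none of the 42MGBA arrays, stood at 6.27, against 16.6 in H4 and 34.8 in HCT116. Of the genes called in H4, UQCRQ (7.55) and COX8A (7.94) were higher in 42MGBA, NDUFC1 (3.37) also, NDUFB5 (-7.06) was lower and NDUFB2 (0.29) did not pass.

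**Figure D5:**
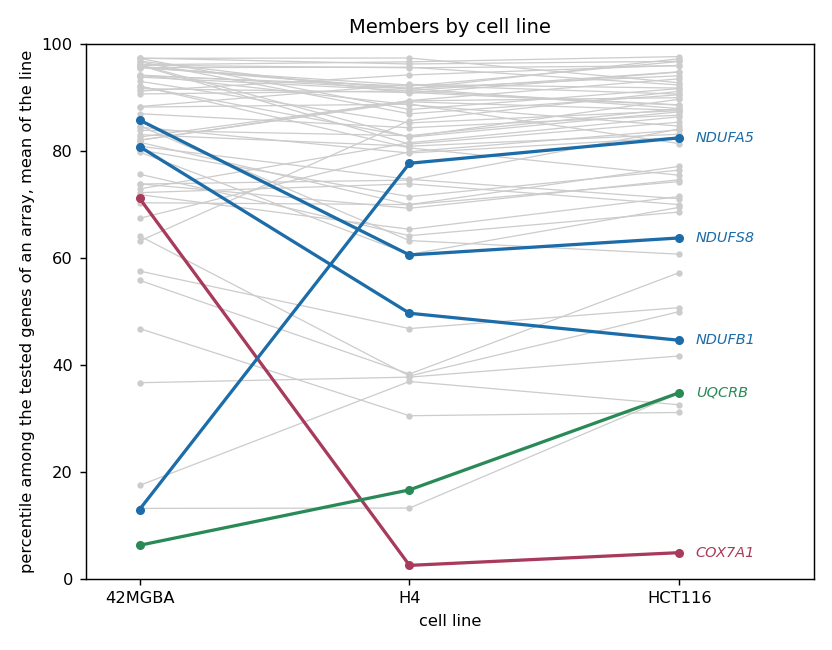
Percentile of each tested member among the tested genes of an array, averaged over the arrays of 42MGBA, H4 and HCT116, with 1 line per gene. NDUFA5 lies at 12.9 in 42MGBA and COX7A1 at 71.2, where H4 and HCT116 have 77.7 and 82.4 for NDUFA5 and 2.51 and 4.89 for COX7A1.

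The span of genes moved with this comparison too: over all genes the median difference in the 5 bins of span, shortest first, was 7.42, 2.26, -0.87, -3.95 and -5.27 points. Its part in the members' shift was not tested. For complex II, array rows of the same gene disagreed. SDHC was higher in 42MGBA (11.2 points) by the row used, at percentile 96.1, against 82.6 in H4 and 87.3 in HCT116, while its other row stood at 49.2, against 49.9 and 61.4. SDHD was lower (-9.47 points) by the row used, at 82.0, against 89.4 in H4 and 93.5 in HCT116, while its other row stood at 92.6, against 62.9 and 70.8. The direction of SDHC and SDHD in 42MGBA therefore depended on the row. The pseudogene UQCRBP1 stood at percentile 62.7 in 42MGBA, against 27.1 in H4 and 36.6 in HCT116, opposite to its parent UQCRB.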

How the data were processed

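Per the submitters' processing notes, the authors made the deposited log2 expression values by RMA in Affymetrix Expression Console; settings and annotation build are not given in the sources used here. The deposited table holds 33297 rows on 16 arrays. Rows with 1 gene in the platform annotation (19460) were named through RefSeq (GRCh38.p14), where 19429 matched by Entrez identifier. Rows of several genes (1754, among them NDUFS5, NDUFC2 and a second UQCRH row) were left out. The row with the highest mean stood for a gene with several. SDHB and UQCRFS1 are not analysed here. Genes above the array median on at least 2 arrays were tested (12978). limma 3.58.1 in R 4.3.3 fitted 6 groups on all 16 arrays (lmFit, contrasts.fit, eBayes), two-sided, with Benjamini-Hochberg adjustment over all tested genes, threshold 0.05, and 95% intervals; the script was tested on simulated data. The 42MGBA comparison used percentiles within an array. Sequences are from RefSeq. Precision is limited by the number of arrays. Within a line arrays correlated at 0.986 or more.

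The members and lists were chosen with earlier results of these data known. In each contrast within a line, the members past the threshold and the 3 per complex with the smallest p are given by array, and UQCRQ, NDUFB5 and COX8A always. For the members past the threshold between lines, the same rule was narrowed after their values were seen to those with the largest differences, by range. For each list up to 3 called genes were named. Alternatives left out each array, fitted a line alone, dropped parental arrays, changed the filter, row rule, normalization or moderation, averaged sister clones, blocked on the parent clone, and counted COXFA4 as a member; leaving out arrays between lines and counting COXFA4 were added after the data were seen.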

Additional observations from a re-analysis of the deposited data

How the results depend on the processing

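Among the recomputed counts and medians, 262 stayed within 1.5 times the count or within the spread of the array medians and 18 moved further. Many that stayed are counts of 0 in contrasts where few of all genes passed, so the total is no measure of stability. For the STAG2 contrast in H4, 23 stayed and 7 moved. Calls in H4 rest on few arrays. The count of 5 ranged between 0 and 5 when single arrays were left out. It was 0 with H4 fitted alone and 0 with clones 8-1 and 8-3 averaged, where fewer samples enter. Over all 14 alternatives, counted for each gene in each fit, the 5 genes lost the threshold 36 times and kept it 34 times. That their differences kept their sign there says little, since the H4 groups did not overlap for these genes. Leaving out single arrays gave 0 to 1 members in HCT116 and in the mean of 3 lines, where the medians changed sign (-0.05 to 0.01 in HCT116, -0.0017 to 0.03 over 3 lines), a median of 0.14 to 0.21 for H4 minus HCT116 of the contrast, of -0.23 to -0.16 for H4 against HCT116, and of 1.95 to 2.35 points for 42MGBA. H4 against HCT116 gave 23 calls and a median of -0.13 in deficient and knockout cultures alone, a median of -0.27 in corrected and wild-type clones, and -0.22 after quantile normalization over all arrays. In corrected and wild-type clones NDUFB2 (-0.05) and NDUFB7 (-0.0083) turned round; the cause was not tested. The 42MGBA median was 2.60 against H4 alone and 1.47 among all single-gene rows. Against H4 alone COX6B1 (-0.058), NDUFA10 (0.34), NDUFA12 (-0.56) and NDUFB4 (-0.071) turned round, as did UQCR11 (-1.44) against HCT116 alone. With the parent clone as a replicate block in 42MGBA, taken from the clone numbers in the labels, the median was -0.09 with 0 calls, and no call changed. In that limma fit 1032 of all tested genes had an unadjusted p under 0.05, against 512 in the main fit. With 2 or 3 arrays a group, the smallest difference of a member called within a line was 0.38, above the members' median differences; arrays carry no detection calls here.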
